A study of Mus musculus with 8 samples.

Results

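GABA-A receptor subunit genes were examined in the upper neocortical layers of newborn mice lacking Bcl11a, which encodes a transcription factor of projection neurons. The group comprised 7 genes matched exactly by symbol to the array annotation, Gabra2, Gabra3, Gabra4 and Gabra5 (alpha subunits), Gabrb1 and Gabrb2 (beta subunits) and Gabrg1 (a gamma subunit), of 19938 genes measured in all. Each was measured in all 8 arrays. Neocortical tissue was cut from layers II to IV by laser microdissection at postnatal day 2, and RNA of 1 pup was hybridised to each Affymetrix mouse gene array. Control pups (n = 4) were Bcl11a flox/+;Emx1 IRESCre/+, and mutant pups (n = 4) were Bcl11a flox/flox;Emx1 IRESCre/+. All pups therefore carried Cre at the Emx1 locus, which is active in the lineage of cortical excitatory neurons and much of the glia and not in that of cortical interneurons, and the controls were heterozygous wherever Cre had acted. The comparison asks how the expression of these subunits differs between loss of both Bcl11a alleles and loss of 1.

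GABA-A receptors are chloride channels opened by the transmitter GABA. Each receptor is a ring of subunits around a pore, most often alpha and beta subunits together with a gamma or delta subunit, and GABA binds where beta meets alpha. The alpha subunit largely sets the kinetics of the receptor and its response to benzodiazepines. In the newborn cortex receptors containing the subunits encoded by Gabra2, Gabra3 and Gabra5 are prominent, and GABA can depolarise young neurons because their internal chloride is high.

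The deposited values were taken as log2 intensities, with array medians between 4.83 and 4.91. Bcl11a read 10.59, 10.52, 10.34 and 10.34 in controls 1 to 4 and 8.56, 8.85, 8.37 and 8.75 in mutants 1 to 4, a log2 difference of -1.82 (SE 0.10, limma adjusted p = 4.9e-07). The mutant arrays were thus low for the targeted gene, although it was not examined whether the probe set covers the deleted exons. Control 1 lay apart on principal component 2, at 16.59 against -10.88 to -4.84 in the other controls. Markers of upper-layer projection neurons (10 measured) and of deep-layer projection neurons (10 measured) all had means above 4.31, an empirical floor given by Y-linked genes in arrays with high Xist. Of 8 microglial markers, 4 had means at or below it, among them Aif1. Of 10 upper-layer markers 5 fell, and the mean of the list lay between 9.25 and 9.40 in controls and between 8.95 and 9.13 in mutants. Of 15 interneuron markers 2 fell, with list means of 7.06 to 7.27 in controls and 6.96 to 7.01 in mutants. That separation rested on Npy, which had the largest difference of the list (-1.63). Without Npy the means of the other interneuron markers overlapped between the groups. In bulk tissue fewer cells of a type and less RNA per cell cannot be told apart.

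The promoters of the 3 subunit genes that passed the test are shown because these genes moved in opposite directions. Each sequence holds the 250 bases before the farthest upstream start that RefSeq gives (build GRCm38.p6), 5′ to 3′ on the strand of the gene, and capitals mark matches to any of 4 motifs.
Gabra2, chr5:71095850-71096099, minus strand: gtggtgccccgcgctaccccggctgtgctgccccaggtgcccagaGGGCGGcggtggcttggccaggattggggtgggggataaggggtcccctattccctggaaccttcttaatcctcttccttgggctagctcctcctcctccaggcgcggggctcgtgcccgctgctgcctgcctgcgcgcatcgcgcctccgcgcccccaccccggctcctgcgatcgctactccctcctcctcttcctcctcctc
Gabra3, chrX:72656920-72657169, minus strand: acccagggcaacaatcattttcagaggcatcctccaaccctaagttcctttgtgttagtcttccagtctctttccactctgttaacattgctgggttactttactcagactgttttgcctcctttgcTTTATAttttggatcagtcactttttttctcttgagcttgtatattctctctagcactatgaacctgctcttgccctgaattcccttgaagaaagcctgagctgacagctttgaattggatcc
Gabrb2, chr11:42420190-42420439, plus strand: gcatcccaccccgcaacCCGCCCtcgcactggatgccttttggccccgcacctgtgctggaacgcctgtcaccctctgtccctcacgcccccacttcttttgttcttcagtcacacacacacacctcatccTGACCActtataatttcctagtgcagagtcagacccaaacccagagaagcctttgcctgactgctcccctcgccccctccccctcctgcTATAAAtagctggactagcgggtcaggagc
The motifs, searched on both strands, were TGACCA (the sequence recognised by BCL11A), TTCNNNGAA (the core recognised by BCL6), GGGCGG (the GC box) and TATAAA (the TATA box), and no matches overlapped. Over 32851 promoter windows of the same length, TGACCA was found in 11.4%, TTCNNNGAA in 7.02%, GGGCGG in 32.7% and TATAAA in 12.4%. The Gabrb2 promoter held TGACCA beginning 119 bases before the start, TATAAA beginning 30 bases before it, and a GC box on the opposite strand beginning 233 bases before it. The Gabra2 promoter held a GC box beginning 205 bases before the start, and the Gabra3 promoter held TATAAA on the opposite strand beginning 123 bases before it. Base composition also differed, with 70.0% G and C and 18 CpG dinucleotides before Gabra2, 58.8% and 8 before Gabrb2, and 42.4% and 0 before Gabra3, against a median of 52.4% over all windows. All 7 genes matched the table, with 11 windows in all. Gabrb2 also had windows before starts at 42420774 and 42421201, and each of these held 0 of the motifs. Among the other genes, TTCNNNGAA was found before Gabrg1 (as ttcagagaa) and GGGCGG, on the opposite strand, before Gabra4. These matches describe letters in a window and are not sites.

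Gabra2 and Gabra3 rose in the mutant layers, Gabrb2 fell, and Gabra4, Gabra5, Gabrb1 and Gabrg1 did not pass the test. A gene is called changed (risen or fallen) where the adjusted p of limma, a moderated linear model with Benjamini-Hochberg adjustment over all genes, was under 0.05, and a difference is mutant minus control on the log2 scale. Of the 7 genes, 3 changed, whereas 4.15% of all genes did (2.36% higher and 1.79% lower in the mutant). In 6 of the 7 the control and mutant values did not overlap, as in 9.25% of all genes. The median difference was 0.27 over the 7 genes and 0.02 over all genes, and 6 of the 7 differences lay above 0. The 7 genes were chosen with earlier results of these data known. All 7 had an unadjusted limma p under 0.05, against 1 of the 9 other subunits measured and 2789 of all 19938 genes. The contrasts with all genes therefore describe these 7 genes and are no test of the subunit family. Every array read above the floor of 4.31 for each of the 7 genes.

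**Figure D1:**
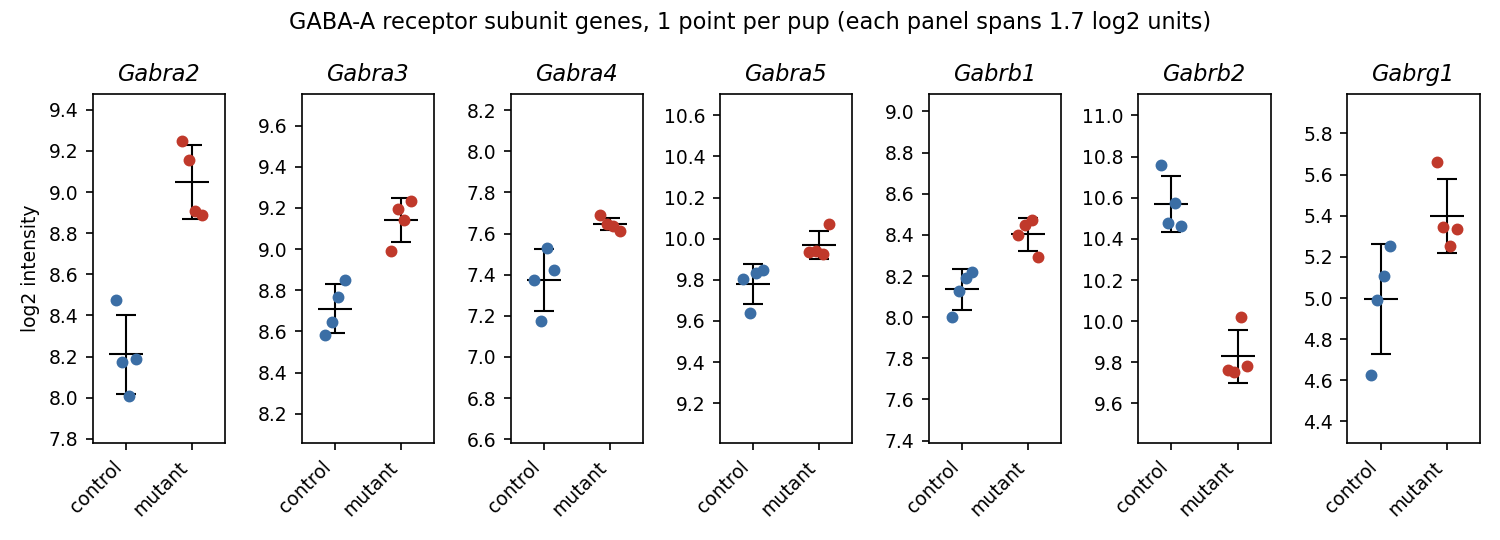
Log2 intensity of the 7 subunit genes in control (blue) and mutant (red) arrays, 1 point per pup, with the mean and SD (n = 4) as black bars; each panel spans 1.7 log2 units around its own centre. Gabra2 and Gabrb2 show the widest gaps between the groups, 0.41 and 0.45, in opposite directions, and Gabrg1 is the gene whose groups overlap.

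Gabra2 encodes an alpha subunit found on the axon initial segment and at somatic synapses of forebrain neurons. It read 8.47, 8.17, 8.01 and 8.19 in controls 1 to 4 and 9.25, 9.16, 8.91 and 8.89 in mutants 1 to 4. Every mutant lay above every control, and control 1 was the highest of the controls. The mean went from 8.21 ± 0.19 to 9.05 ± 0.18 (SD, n = 4), or 1.79-fold (95% interval 1.53 to 2.10), and the log2 difference was 0.84 (SE 0.11, limma adjusted p = 3.8e-04), beside an exact two-sided permutation p of 0.0286, the smallest possible with 4 arrays a group. Without control 1 the difference was 0.93. Of 10 deep-layer markers, 8 had differences above 0 and 2 below (list median 0.11). Ldb2 rose by 1.38, Ntsr1 fell (-0.90) and the other 8 did not pass. The list mean was 7.16 to 7.47 in controls and 7.52 to 7.63 in mutants. That separation rested on Ldb2, the largest difference of the list. Without Ldb2 the means of the other deep-layer markers overlapped between the groups. The part of these markers in the rise of Gabra2 was not tested. The call was lost without moderation of variances (adjusted p = 0.0530).

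Gabra3, an X-linked gene, encodes an alpha subunit that is abundant in the immature cortex. Its values were 8.58, 8.65, 8.77 and 8.85 in controls 1 to 4 and 8.99, 9.20, 9.14 and 9.23 in mutants 1 to 4. The groups were separated by 0.14, from control 4 to mutant 1. The mean went from 8.71 ± 0.12 to 9.14 ± 0.11 (SD, n = 4), a rise of 1.35-fold (95% interval 1.20 to 1.51). The log2 difference was 0.43 (SE 0.08, limma adjusted p = 0.00569; exact two-sided permutation p = 0.0286). High Xist marked 2 of the 4 control and 1 of the 4 mutant arrays, so that each group held both sexes. With sex inferred from Xist as a covariate the difference was 0.42 (adjusted p = 0.0157). Without moderation of variances the call was lost (adjusted p = 0.0790).

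Gabra4 encodes an alpha subunit that often pairs with the delta subunit outside synapses and is insensitive to classical benzodiazepines. It read 7.37, 7.17, 7.53 and 7.42 in controls 1 to 4 and 7.69, 7.65, 7.64 and 7.61 in mutants 1 to 4. The mutants were close together (SD 0.03, against 0.15 in controls), and all lay above the controls by at least 0.08. The log2 difference was 0.27 (SE 0.08, 95% interval 0.11 to 0.44), and it did not pass over all genes (limma adjusted p = 0.0723; exact two-sided permutation p = 0.0286). It passed without the dimmest 50% of genes (adjusted p = 0.0461) or without control 3 (0.0397).

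Gabra5 encodes an alpha subunit of extrasynaptic receptors, known above all from the hippocampus. Controls 1 to 4 read 9.80, 9.64, 9.83 and 9.85, and mutants 1 to 4 read 9.93, 9.94, 9.93 and 10.07. The groups did not overlap, but the gap between control 4 and mutant 3 was only 0.08, and mutant 4 stood above the other mutants. Its difference of 0.19 (SE 0.07, 95% interval 0.04 to 0.34) was the smallest of the 7 in size and did not pass (limma adjusted p = 0.201).

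Gabrb2, which encodes a beta subunit of the most widespread adult receptor, was the 1 gene of the 7 that fell. It read 10.76, 10.48, 10.57 and 10.46 in controls 1 to 4 and 9.76, 9.75, 10.02 and 9.78 in mutants 1 to 4. The lowest control lay 0.45 above the highest mutant, mutant 3. The mean went from 10.57 ± 0.14 to 9.83 ± 0.13 (SD, n = 4), 1.67-fold lower (95% interval 1.47 to 1.90). The log2 difference was -0.74 (SE 0.08, limma adjusted p = 1.6e-04; exact two-sided permutation p = 0.0286). Gabrb2 had 3 probe sets with this symbol, and the 2 dimmer ones also read lower in the mutant, with differences of -0.60 and -0.65 (adjusted p = 2.0e-04 and 5.9e-04 over all probe sets with 1 symbol). The call held under all 10 alternative settings and without any 1 array. Of 15 interneuron markers 2 fell and 4 had differences above 0 (list median -0.20). Of 10 upper-layer markers 5 fell and 3 lay above 0 (list median -0.31), and the part of both lists in this result was not tested.

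Gabrb1, the other beta subunit gene, lay in the opposite direction. It read 8.0, 8.13, 8.19 and 8.22 in controls 1 to 4 and 8.40, 8.45, 8.47 and 8.29 in mutants 1 to 4. All mutants were above all controls, with a gap of 0.07 between control 4 and mutant 4. The log2 difference was 0.27 (SE 0.07, 95% interval 0.12 to 0.42), just short of the threshold over all genes (limma adjusted p = 0.0527; exact two-sided permutation p = 0.0286). It passed under 4 of 10 alternative settings, with an adjusted p from 0.0323 to 0.147 over the 10, and without mutant 4 (0.0490).

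Gabrg1 encodes a gamma subunit of restricted distribution that is also known from astrocytes. Its signal was the nearest of the 7 to the floor, at 4.63, 4.99, 5.11 and 5.25 in controls 1 to 4 and 5.66, 5.34, 5.25 and 5.34 in mutants 1 to 4. Control 4 (5.2539) and mutant 3 (5.2525) overlapped. The difference of 0.41 (SE 0.12, 95% interval 0.14 to 0.67) did not pass (limma adjusted p = 0.105; exact two-sided permutation p = 0.0571), and control 1 was the lowest array. Without control 1 the difference was 0.28, and without control 4 it was 0.49 and passed (adjusted p = 0.0484). Of 12 markers of astrocytes and radial glia, 0 changed at the adjusted threshold of limma (2 had an unadjusted p under 0.05), and their mean lay between 7.01 and 7.22 in controls and between 6.94 and 7.14 in mutants.

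Whether the subunits changed unequally was asked from log2 ratios between 2 genes within each array, over 21 pairs. Such a ratio carries no comparison of levels, because probe sets differ in their response. The ratio of Gabra2 to Gabrb2 shifted most, by 1.58 (SE 0.15). The 6 pairs that include Gabrb2 shifted by 0.93 to 1.58 in size, with groups that did not overlap in any of them. Apart from the pair with Gabrg1, this lack of overlap was fixed by the single genes. Gabrb2 was lower in every mutant and the other gene higher, each without overlap, so that these pairs add no separate support. Within the alpha subunits, Gabra2 moved further than Gabra4 by 0.57 (SE 0.16) and further than Gabra5 by 0.65 (SE 0.16), and Gabra3 moved further than Gabra5 by 0.24 (SE 0.07), again without overlap. These 9 pairs had the smallest exact two-sided permutation p that the design allows, 0.0286. It is 0.0667 after Benjamini-Hochberg adjustment over the pairs, so that 0 of 21 passed the adjusted threshold. With this smallest p no single pair could have passed on its own, however large its shift. The count of 0 therefore does not show equal change, and the 6 pairs with Gabrb2 share that gene. The ratio of Gabra2 to Gabra3 shifted by 0.41 (SE 0.19) with overlapping groups (exact p = 0.114, adjusted 0.200).

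**Figure D2:**
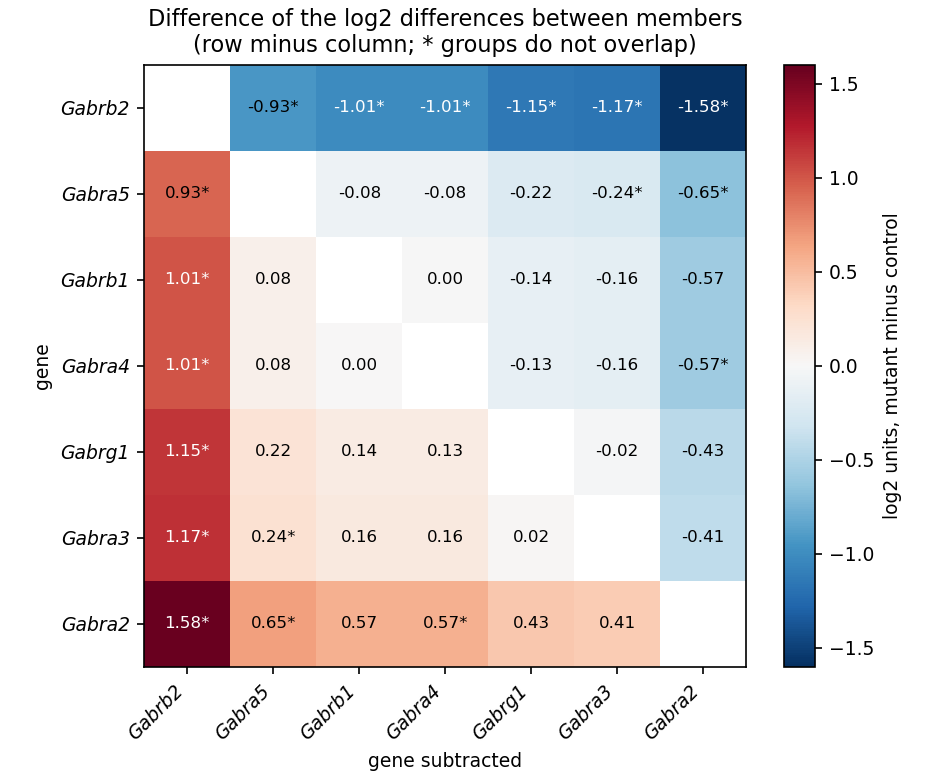
Shift of the within-array log2 ratio between genes, mutant minus control, for all 21 pairs, as the gene of the row minus the gene of the column, with genes ordered by their own difference. Asterisks mark the 9 pairs whose control and mutant ratios do not overlap; the row of Gabrb2 is negative throughout, with its largest shift, 1.58 in size, against Gabra2.

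Gabrg1, Gabra2, Gabra4 and Gabrb1 lie close together on chromosome 5 of GRCm38.p6, with Cox7b2 as the protein-coding gene between Gabra2 and Gabra4. Gabra4 and Gabrb1 are direct neighbours on opposite strands. The ratio of Gabra4 to Gabrb1 shifted by 0.0028 (SE 0.08, exact two-sided permutation p = 1.0), with ratios of -0.95 to -0.63 in controls and -0.84 to -0.68 in mutants. Gabra2 and Gabrg1, also direct neighbours, had a ratio that shifted by 0.43 (SE 0.23), with overlapping groups (exact p = 0.143). The remaining members lie on chromosomes 7 (Gabra5), 11 (Gabrb2) and X (Gabra3).

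No other GABA-A subunit gene measured passed the test, and most were dim. Of 9 measured from a list of 12, 0 passed the adjusted threshold of limma (1 had an unadjusted p under 0.05), with a median difference of 0.01 against 0.02 over all genes, and 6 had means at or below the floor. The dim genes were Gabra6, Gabre, Gabrp, Gabrq, Gabrr1 and Gabrr3, with differences from -0.15 to 0.05. The delta subunit gene Gabrd read 5.30, 5.12, 5.14 and 5.04 in controls 1 to 4 and 4.90, 4.97, 4.91 and 4.91 in mutants 1 to 4, so that its groups did not overlap. Its difference was -0.23 (SE 0.07, limma adjusted p = 0.0927), and after quantile normalization between arrays it passed. Gabrg3, which encodes a gamma subunit, had a difference of 0.17 (SE 0.11, limma adjusted p = 0.552), and Gabrr2 had one of 0.01.

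**Figure D3:**
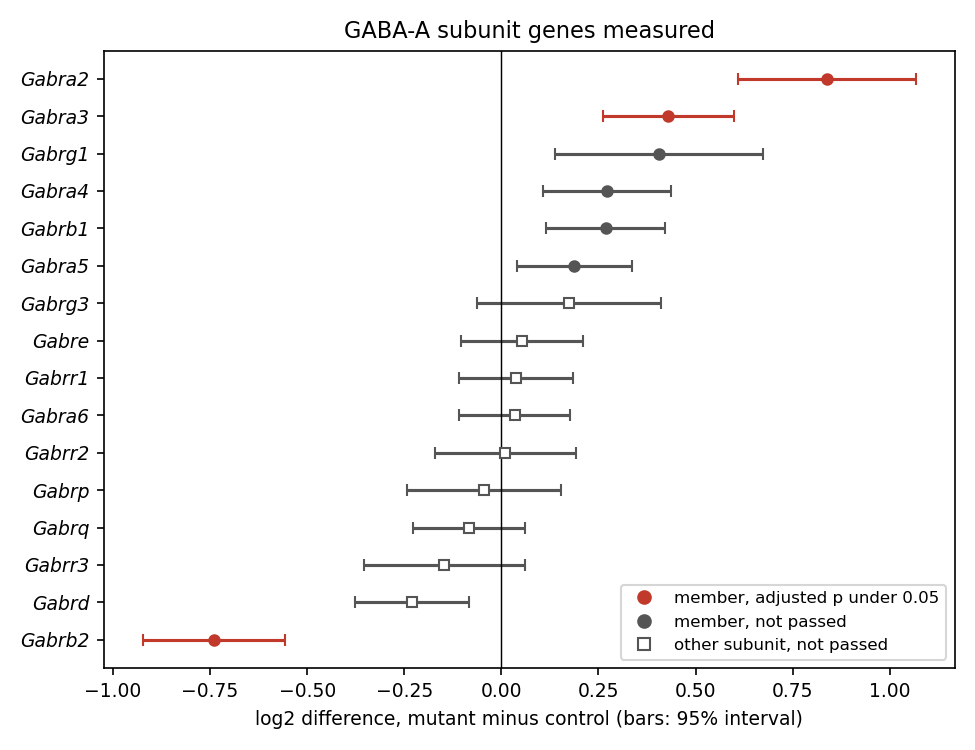
Log2 difference, mutant minus control, of the 16 GABA-A subunit genes measured, with 95% intervals from the linear model (4 arrays per group). Gabra2 and Gabra3 at the top and Gabrb2 at the bottom, in red, are the genes that passed; open squares are subunits outside the group of 7.

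Beyond the 7 subunits, 59 of 65 listed genes of GABA and glycine signalling were measured in 6 lists, the other subunits among them. By limma 3 rose, 0 fell (at an unadjusted p under 0.05, 6 were lower) and 56 did not pass. Over all 19938 genes 4.15% changed, and 1086 were lower at an unadjusted p under 0.05. The 3 calls among 59 genes are near that share of 4.15% and are no result about GABA signalling as a whole. With the replicate number as a block 3 rose and 1 fell, and with control 1 left out 2 rose and 2 fell. Slc6a11, a GABA transporter found mainly on astrocytes, rose from 9.38, 9.60, 9.75 and 9.86 in controls 1 to 4 to 10.32, 10.39, 10.17 and 10.25 in mutants 1 to 4. No mutant fell within the control range, and the log2 difference was 0.64 (SE 0.10, 1.56-fold, limma adjusted p = 0.00137). The other 7 genes of GABA synthesis, transport and breakdown did not pass. Gad2, a GABA-synthesising enzyme of interneurons, had the next largest difference of that list, -0.22 (limma adjusted p = 0.163). Gad1, which encodes the other such enzyme, had a difference of -0.20.

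Glrb, the glycine receptor subunit that binds the scaffold protein gephyrin, rose by 0.31 (SE 0.07, limma adjusted p = 0.0170), from 8.57 ± 0.07 to 8.88 ± 0.09 (SD, n = 4). Its call was lost without control 2 (adjusted p = 0.0587) or mutant 2 (0.0630). The other 4 glycine receptor genes did not pass. Glra3 had a difference of -0.62 (limma adjusted p = 0.111), but 2 controls and all mutants read below the floor. Glra3 passed as lower with the replicate number as a block (adjusted p = 0.0090) and without control 1 (0.0224). Glra2 had a difference of 0.38 (0.251), and passed as higher with inferred sex as a covariate (0.0029). Of 11 genes of chloride and bicarbonate handling, Slc4a8, a sodium-driven chloride and bicarbonate exchanger, passed by a narrow margin (0.30, SE 0.08, limma adjusted p = 0.0499). It lost the call without any 1 array other than control 4 (adjusted p from 0.0820 to 0.132). Slc4a8 passed under only 5 of 10 alternative settings (limma adjusted p from 0.0321 to 0.185 over the 10). Slc12a5, which extrudes chloride from neurons and so governs the direction of GABA responses, ranged from 7.78 to 8.62 in controls and from 8.34 to 8.69 in mutants (difference 0.33, adjusted p = 0.312, and 0.0480 without control 4).

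Genes that anchor, traffic or couple the receptors did not differ at the adjusted threshold. Of 20 genes of GABA-A receptor anchoring and trafficking 0 passed by limma (4 had an unadjusted p under 0.05), with a median difference of 0.01. The largest differences were those of Hap1, which promotes receptor recycling (0.33, adjusted p = 0.198), and Slitrk3, an organiser of inhibitory synapses (0.26, 0.259). Of 6 GABA-B receptor genes 0 passed by limma (1 had an unadjusted p under 0.05), with the largest differences in the receptor subunit gene Gabbr2 (-0.25, 0.193, and 0.0098 without control 1, where it passed as lower) and the auxiliary subunit gene Kctd8 (-0.19, 0.564).

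**Figure D4:**
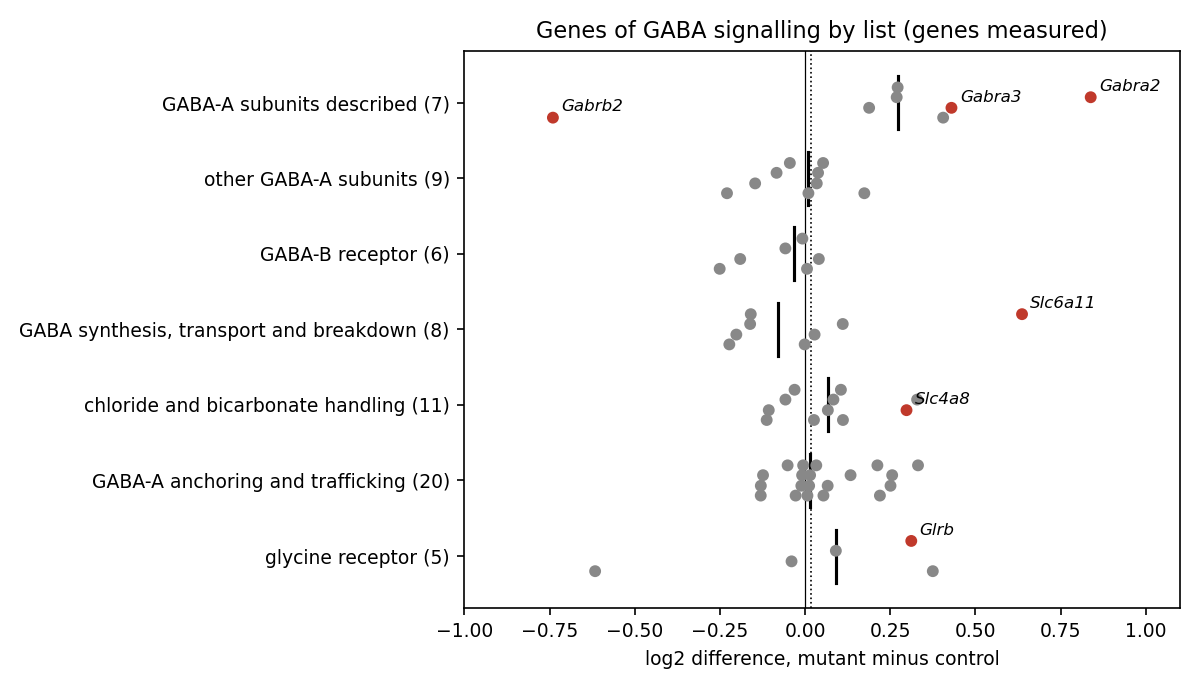
Log2 difference, mutant minus control, of each gene in the 7 lists of GABA and glycine signalling, with the number of genes measured in parentheses. Red points passed the test and are named, black bars are list medians, and the dotted line is the median over all genes, 0.02. The 7 subunits described, which were chosen with earlier results of these data known, have the median farthest from that line, 0.27.

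Each changed subunit was set against 13104 named genes above the floor by the mean absolute difference, over the 8 arrays, of log2 values taken relative to the control mean of each gene. Nearest to Gabra2 were Insm1, a zinc finger factor (0.08), B3glct, a glucosyltransferase (0.11), and Neurod6, a basic helix-loop-helix factor of excitatory neurons (0.11). Zfp811 (0.03), Ankrd45 (0.05) and Ace, the angiotensin-converting enzyme (0.05), were nearest to Gabra3. Nearest to Gabrb2 were Carmil1, a regulator of actin filament capping (0.07), Arhgap29, a GTPase-activating protein (0.07), and Rbfox3, a splicing factor of neurons known as NeuN (0.08). These 9 genes had log2 differences of the same sign as the subunit they resemble, which the measure itself favours: 0.82, 0.75 and 0.70 beside Gabra2, 0.42, 0.43 and 0.41 beside Gabra3, and -0.63, -0.66 and -0.63 beside Gabrb2.

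Other marker lists were read for the tissue that carries these changes. Of 10 deep-layer markers Ldb2 rose and Ntsr1 fell and the other 8 did not pass. In the upper-layer list Cux1, Cux2, Pou3f2, Pou3f3 and Mdga1 fell, and Dlx1 and Npy fell in the interneuron list. Reln fell in the list of Cajal-Retzius cells, with 5 of 6 not passing, but its groups overlapped. Reln no longer passed when control 2, 3 or 4 or mutant 2 or 3 was left out (adjusted p from 0.0702 to 0.101), nor Pou3f3 when control 2 or 3 or mutant 1, 3 or 4 was (0.0584 to 0.0935). In the lists of oligodendrocyte precursors (8 measured), microglia (8), vascular cells (10), meningeal cells (9) and striatal projection neurons (7), 0 genes passed by limma. Their list medians lay from -0.15 to 0.02. An unadjusted limma p under 0.05 was found for 7 of these genes, all lower in the mutant, and for 2789 of all 19938 genes in either direction. The part of any of these cell types in the subunit differences was not tested.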

How the data were processed

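Microdissected neocortex of 8 pups (4 control, 4 mutant) was measured on GeneChip Mouse Gene 1.0 ST arrays and analysed by the submitters with BRB-ArrayTools, per the labels. The deposited values were read as log2 expression, normalized by the authors; the sources used here do not give background correction, normalization, probe summarisation or log base, and another base would change fold changes but not tests. Of 35556 probe sets, 21789 had 1 gene symbol, 1621 several and 12146 none. The brightest probe set of each gene gave 19938 genes, with no filter. Mutant and control arrays were compared in limma 3.58.1 (R 4.3.3) with genotype alone, tested on simulated data. The number of arrays limits the precision (median SE 0.0766). Subunits, lists and tests were chosen with earlier results of these data known. Named genes were the 7 subunits, other subunits, listed genes that passed or had the 2 largest differences of a pathway list, the first gene or changed genes of marker lists, and the 3 genes most like each changed subunit. Nothing says that pups came from separate litters. The limma p-values set each difference against the spread between these samples, with variances moderated over all genes. The labels do not say that replicate numbers pair pups, and the main comparison did not pair them. Alternatives covered normalization, filters, probe sets, weights, variances, inferred sex, a replicate block and each array omitted.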

Additional observations from a re-analysis of the deposited data

Results flagged for a closer look

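Among 110 groups of 4 arrays (55 named genes), 5 held an array whose gap to its nearest neighbour took a larger share of the range of the group than Dixon's 95% critical value, and chance gives about 1 in 20. Gabrb2 was high in mutant 3 (10.02, others 9.75 to 9.78, share 0.9005), nearer to the controls than the other mutants were. Gabra5 was high in mutant 4 (10.07, others 9.93 to 9.94, share 0.8897), farther from the controls. Gabrd was high in mutant 2 (4.97, others 4.90 to 4.91, share 0.8527). Cux1 was high in control 3 (9.73, others 9.65 to 9.66, share 0.8944), and Ldb2 was low in control 1 (8.29, others 9.58 to 9.74, share 0.8885).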

How the results depend on the processing

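Directions of the 7 subunits held under every setting tried, and Gabrg1 was not tested without the dimmest 50% of genes, which removes it. Without moderation of variances the differences of Gabra2 (0.84) and Gabra3 (0.43) no longer passed, Gabrb2 alone of the 7 did (1 gene), 0 other GABA signalling genes did, and 249 of all genes did, against 827; the number at an adjusted p under 0.01 was 447. Gabra4 (0.27) and Gabrb1 (0.27) passed without the dimmest 50% of genes, which made 5 changed subunits. Gabrb1 also passed after quantile normalization (0.26), without the dimmest 30% of genes (0.27) and with an intensity trend and robust variances (0.27). The cause was not tested beyond the fewer genes that filters leave. Leaving out each array in turn gave 0.77 to 0.93 for Gabra2, 0.39 to 0.48 for Gabra3, 0.20 to 0.32 for Gabra4, 0.14 to 0.21 for Gabra5, 0.22 to 0.31 for Gabrb1, -0.80 to -0.68 for Gabrb2 and 0.28 to 0.49 for Gabrg1, with 3 to 4 subunits, 584 to 814 genes and 1 to 4 other GABA signalling genes changed, 1 of them without control 2 or mutant 2. Alternatives for genes other than the 7 were chosen after seeing the data. With the replicate number as a block 987 genes and 3 subunits passed, and no call among the 7 changed, while of other GABA signalling genes 3 rose and 1, Glra3, fell. Same-numbered deviations correlated at 0.11, 0.06, 0.30 and 0.15, and 6 of 8 arrays correlated best with their own number, a hint from the data and not the design. Signal over background limits Gabrg1 and the dim subunits most.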

Other observations

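The protein-coding neighbours of the subunit genes in GRCm38.p6 were read after their values had been seen. Atp10b, a phospholipid flippase gene next to Gabrb2 on chromosome 11, fell from 6.26 ± 0.36 to 4.81 ± 0.11 (SD, n = 4), with a log2 difference of -1.45 (SE 0.14, limma adjusted p = 5.2e-05) and no overlap between groups. Gabra6, on the other side of Gabrb2, read at or below the floor of 4.31 in both groups. On chromosome 5, Gnpda2 and Commd8 had differences of 0.15 and 0.01 and did not pass (limma adjusted p = 0.441 and 0.985). Cox7b2 on the same chromosome, and Magea10 and Gabrq beside Gabra3 on the X chromosome, read below the floor in both groups and gave no comparison.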
